A study of Mus musculus with 374 samples.

Results

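T lymphocytes sorted from the thymus of 1 mouse were compared with progenitor/stem cells sorted from its bone marrow. Wells were chosen by the sort label alone. There were 43 wells labelled as T lymphocytes, in 2 plate rows, and 95 labelled as LSK, in 4 plate rows, of 374 wells in all. The mouse was a C57BL/6 female of 10-13 weeks, with no treatment named. The T lymphocyte gate was CD3+ FSC-Alow, that is, small cells with the T cell receptor complex on the surface. The progenitor/stem gate was Lin- Kit+ Sca1+, from which the name LSK comes. Transcripts were measured on 1 plate by CEL-seq2, which tags each captured mRNA with a unique molecular identifier (UMI), so that a count is a count of tagged molecules.

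T cells develop in the thymus from progenitors that leave the bone marrow. On the way they shut down stem and progenitor genes, switch on T lineage transcription factors such as TCF-1 and Bcl11b, rearrange the genes of the T cell receptor chains and pass through a stage with both CD4 and CD8 before they keep one of these coreceptors. LSK cells are the early end of this route: a mixture of haematopoietic stem cells and multipotent progenitors that carry the stem cell factor receptor Kit. The tissue of origin, the sort gate and the plate rows differed together between the populations and cannot be told apart from the cell type. With 1 sample per population there is no replicate of the animal, and no test was possible. The wells of a population are cells of the same mouse and show spread between cells only.

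The index fluorescence recorded during the sort separated the populations as the gates define. CD3 fluorescence ran from 4889 to 25573 in the T lymphocytes (median 10475, arbitrary units) and from -111 to 824 in the progenitor/stem cells (median 464). c-Kit fluorescence ran from 2842 to 13046 in the progenitor/stem cells and from -111 to 453 in the T lymphocytes. Neither of these ranges overlapped. Sca-1, which is not part of the T lymphocyte gate, had a median of 5161 in LSK wells and 193 in T lymphocyte wells, and 41 of the 43 T lymphocytes lay below all progenitor/stem cells. The medians of CD44, an adhesion receptor, were 6495 and 234. The T lymphocytes were also smaller by forward scatter, with a median of 82944 against 107000.

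The T lymphocyte wells held 200396 UMIs on mouse genes and the progenitor/stem wells 834812. The T lymphocytes had from 426 to 10874 UMIs per well, with a median of 4347, and the progenitor/stem cells from 2003 to 24033, with a median of 7959. Each well also received synthetic ERCC RNA, and the progenitor/stem wells gave 18.8 mouse UMIs per ERCC UMI against 10.1 in the T lymphocyte wells, a ratio of 1.86. The median number of genes with a UMI was 3358 against 2116. After thinning every well to 1500 UMIs it was 993 over 95 wells against 949.5 over 42 wells. One T lymphocyte well, P4, was too shallow for this. In CPM, which state a gene as its share of all UMIs of its population, this difference in RNA per well does not appear. The transcripts Gm42418 and Mir6240, of which Gm42418 overlaps sequence like ribosomal RNA, were among the most abundant in both populations, and Gm42418 alone took 17.0% of the T lymphocyte UMIs and 13.8% of the progenitor/stem UMIs. The other genes among the 5 most abundant were mt-Rnr2, Malat1, Hbb-bs and AA474408. All cell barcodes of the 138 wells were distinct.

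Transcripts followed the labels well by well. The T lymphocyte markers Trac, Trbc2, Cd3g, Tcf7 and Bcl11b together had from 1 to 84 UMIs per T lymphocyte well, with a median of 29, and from 0 to 13 per progenitor/stem well, with a median of 1. As a share of the mouse UMIs of a well they took from 0.208% to 1.23% in the T lymphocytes and from 0% to 0.0644% in the progenitor/stem cells, so the ranges did not overlap. The progenitor/stem markers Kit, Cd34, Flt3, Adgrg1, Meis1 and Hlf took from 0.110% to 0.778% in the progenitor/stem wells and from 0% to 0.171% in the T lymphocyte wells, where 1 well reached into the range of the progenitor/stem wells. Of the T lymphocyte wells, P4 held the fewest marker UMIs, with 1 UMI of Bcl11b among 426. Among the progenitor/stem wells, M14 stood apart with 13 T lymphocyte marker UMIs, of which 8 were Trbc2 and 4 were Trac, beside 56 UMIs on the progenitor/stem markers.

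**Figure D1:**
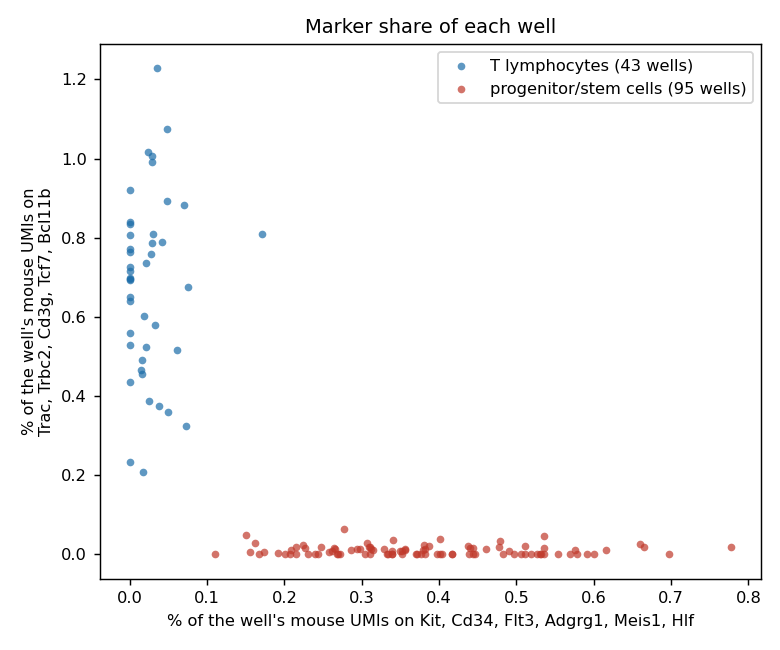
Each point is a well, with the percentage of its mouse UMIs on 6 progenitor/stem cell markers on the horizontal axis and on 5 T lymphocyte markers on the vertical axis. The 43 T lymphocyte wells lie between 0.208% and 1.23% on the vertical axis, above all 95 progenitor/stem wells, which reach 0.0644%.

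The markers of other cell types were present in both populations. Over 7 erythroblast markers, mostly haemoglobins, the T lymphocyte wells held a median of 75 UMIs (50 to 411) and the progenitor/stem wells a median of 86 (49 to 1435), which is 18399 and 13280 CPM. Over 8 granulocyte markers the medians were 14 UMIs (6 to 122) and 15 (5 to 201), or 3648 and 2289 CPM. The 7 B lymphocyte markers were at 309 and 259 CPM, with 1 of the 7 at 0 in each population. No well of either population was free of granulocyte or erythroblast markers, and the part of these UMIs in the ratios below was not tested. Macrophage markers had 1 UMI in T lymphocyte wells and 2 in progenitor/stem wells, with 4 and 3 of the 5 genes at 0, and the thymic epithelial markers had 1 UMI and 0. Over 7 dendritic cell markers the T lymphocytes had 205 CPM and the progenitor/stem cells 622. Over 4 natural killer cell markers they had 150 and 75.5 CPM. The 5 megakaryocyte markers had 4 and 88 UMIs. Trdc, the constant region of the other, gamma delta type of T cell receptor, had 3 UMIs in T lymphocyte wells and 0 in progenitor/stem wells.

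The genome-wide comparison covered the 3825 of 19829 mouse genes whose CPM averaged at least 50 over both populations. The median log2 ratio of T lymphocytes over progenitor/stem cells was -0.07, and the middle of the distribution, from the 5th to the 95th percentile, ran from -1.73 to 1.98. In the T lymphocytes 190 genes were higher by 4-fold or more, which is 4.97% of the genes compared. In the progenitor/stem cells 147 genes were higher by 4-fold or more, which is 3.84%. Sums under 3 UMIs were set to 3 for these ratios, which limits the ratio of 21 of the first group and 38 of the second. Because the T lymphocyte sum is smaller, the floor is 15.0 CPM there and 3.59 CPM in the progenitor/stem cells, and ratios in favour of the T lymphocytes can therefore run further from 0. The split depends on what is held constant. Scaled to ERCC UMIs, every ratio was 0.89 lower on the log2 scale, which left 111 genes higher in T lymphocytes and 424 higher in progenitor/stem cells. In UMIs per well, every ratio was 0.92 lower, and the counts were 107 and 434. The ratios below are shares of the transcripts of each population. Counts of listed genes at 4-fold or more are to be read beside the 4.97% and 3.84% over all genes compared.

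**Figure D2:**
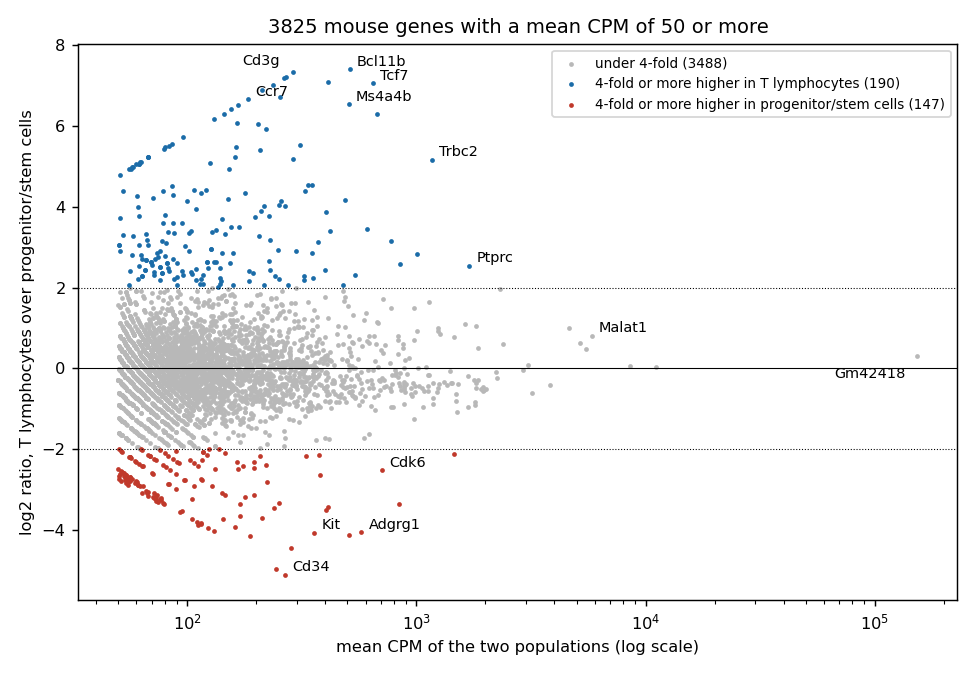
Each point is 1 of the 3825 genes compared, with the mean CPM of the populations on a log axis and the log2 ratio of T lymphocytes over progenitor/stem cells on the vertical axis. Dotted lines mark 4-fold, and the 190 genes above and 147 genes below are coloured, with Bcl11b at 7.41 and Cd34 at -5.12 near the extremes.

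The highest ratios included those of T lineage transcription factors, of the T cell receptor and CD3 complex and of T cell surface receptors. Bcl11b, the transcription factor that commits progenitors to the T lineage, had 204 UMIs in 40 of 43 T lymphocyte wells, with a median of 4 and at most 15 per well. In the progenitor/stem cells it had 5 UMIs, in 5 of 95 wells. This is 1018 CPM (883 to 1168) against 5.99 CPM (1.94 to 14.0), a log2 ratio of 7.41 with an interval from 6.16 to 9.05. Cd3g, the gamma chain of the CD3 complex that carries the signal of the receptor into the cell, had 116 UMIs in 41 T lymphocyte wells, at most 7 per well, and 0 UMIs in the progenitor/stem cells. Against a floor of 3 UMIs over the progenitor/stem cells it was 161-fold higher in the T lymphocytes. This value is set by the floor and is not a lower bound. Tcf7, which encodes TCF-1, had 257 UMIs in 42 of 43 wells and 8 UMIs in 8 of 95 wells, a log2 ratio of 7.06 (6.06 to 8.29).

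All 6 listed genes of the T cell receptor and CD3 complex that were compared were higher by 4-fold or more in the T lymphocytes, and their median log2 ratio was 6.59, against -0.07 over all genes. Trac, the constant region of the receptor alpha chain, had a median of 5 and at most 20 UMIs per T lymphocyte well, with 265 UMIs in 41 wells. It had 14 UMIs in 10 progenitor/stem wells, for a log2 ratio of 6.30 (5.53 to 7.19), and M14 held 4 of these UMIs. Without the 3 T lymphocyte and 9 progenitor/stem wells richest in granulocyte or erythroblast markers, M14 among them, the ratio was 7.66. Trbc2, a constant region of the beta chain, was the most abundant of the list with 455 UMIs, in 42 of 43 wells, a median of 9 and at most 40 per well. It also had the smallest ratio of the list, at 5.16 (4.75 to 5.60), since 53 UMIs fell in the progenitor/stem cells, where it averaged 0.558 per well. The granulocytes held 0.490 Trbc2 UMIs per well and the erythroblasts 0.354. These are means per well and not shares, and the source of the Trbc2 UMIs outside the T lymphocytes was not tested. Trbc1, the other beta constant region, had 163 UMIs in 27 T lymphocyte wells, and 5 in the progenitor/stem cells. Trbc1 and Trbc2 are near-identical copies, and reads may be divided between them unevenly. Cd3d had 85 UMIs against 1, a log2 ratio of 6.88 with the floor of 3 UMIs, by which it is ranked, and of 8.47 (5.95 to 13.8) without the floor. Cd3e had 64 against 6, with a log2 ratio of 5.47.

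The coreceptors split the T lymphocytes. Cd8a had 108 UMIs and Cd8b1 101, each in 17 wells, with up to 17 and 15 UMIs in a well and a median of 0. Cd4 had 53 UMIs in 23 wells. Cd4 without Cd8a or Cd8b1 was counted in 16 wells (37.2%, exact binomial interval 23.0% to 53.3%), Cd8 without Cd4 in 12 (27.9%), both in 7 (16.3%, 6.81% to 30.7%) and neither in 8. At so few UMIs per well a missing UMI does not show that a gene is off, so these are counts of detection and not of cell types. In the progenitor/stem cells Cd8a had 1 UMI, Cd8b1 4 and Cd4 17, so that Cd4 had the smaller ratio, 3.70 (2.89 to 4.58). Of the 11 genes compared from the list of coreceptors and surface receptors, 10 were higher by 4-fold or more in the T lymphocytes. Cd5, a brake on receptor signalling, had 66 UMIs against 2, Cd6 had 57 against 3 and the costimulatory receptor Cd28 65 against 4. The exception was the activation marker Cd69, with 19 UMIs against 21 and a log2 ratio of 1.91.

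Of the machinery that rearranges receptor genes, 3 genes were compared, and none was higher by 4-fold or more in the T lymphocytes. Rag1 and Rag2, the recombinase of V(D)J joining, had 0 UMIs in all 43 T lymphocyte wells, where 3 counts of 43 would be a share of 6.98% of wells with a UMI and the exact binomial interval reaches 8.22%, and 5 and 11 UMIs in the progenitor/stem cells. Neither reached the level for comparison. Their 5.99 and 13.2 CPM in the progenitor/stem cells lie below the 15.0 CPM that 3 UMIs make in the T lymphocytes. The 0 UMIs there therefore do not show a difference. Dntt, which adds nucleotides at the joints, was higher in the progenitor/stem cells, with 325 UMIs against 11 and a log2 ratio of -2.83 (-3.84 to -1.97). Its UMIs were unevenly spread, in 40 of 95 progenitor/stem wells with up to 73 in 1 well. Without that well the ratio was -2.48. The DNA repair gene Xrcc6 was at -1.54 and Prkdc at 0.26. Lig4, too low to be compared, had 4 UMIs against 6, or 20.0 CPM against 7.19.

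Genes of thymic homing and egress were also higher in the T lymphocytes. Ccr7, a chemokine receptor that guides cells to the thymic medulla and later to lymph nodes, had 73 UMIs in 33 of 43 wells and 3 UMIs in the progenitor/stem cells, a log2 ratio of 6.66 with an interval from 5.06 to 8.97. Ccr7 was found in 12 of the 16 wells with Cd4 alone, 9 of the 12 with Cd8 alone, 6 of the 7 with both and 6 of the 8 with neither. Klf2, a transcription factor that switches on exit receptors, had 46 UMIs in 18 wells against 9, and its target S1pr1, the receptor for sphingosine-1-phosphate, 35 in 15 wells against 18. Their log2 ratios were 4.41 (3.36 to 5.63) and 3.02 (2.16 to 3.92). The integrin gene Itgae had 27 UMIs in 10 wells and 0 in the progenitor/stem cells. It was 37.5-fold higher against the floor of 3 UMIs. Of the 6 genes compared in the list for homing, retention and egress, 5 were higher by 4-fold or more in the T lymphocytes. The exception was the chemokine receptor Cxcr4, with 9 UMIs against 70, at -0.90.

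Other T lineage transcription factors had smaller ratios than Bcl11b and Tcf7. Satb1, a chromatin organiser, had 223 UMIs in 40 T lymphocyte wells but also 85 UMIs in 45 progenitor/stem wells, for a log2 ratio of 3.45 (3.08 to 3.83). Gata3 had 38 against 15 and a ratio of 3.40 (2.50 to 4.37). In this list 6 of 8 genes compared were higher by 4-fold or more, with a median of 3.08. Among the genes of receptor signalling the count was 5 of 7, with a median of 3.39. The adaptor Skap1 had 94 UMIs in 36 wells against 3, and the exchange factor Rasgrp1 81 in 34 wells against 8. Zap70, the kinase that docks on the CD3 chains, had 32 UMIs against 0 and was 44.4-fold higher against the floor of 3 UMIs. Lck had only 9 UMIs against 3 and was too low to be compared. The Gimap genes, GTPases of lymphocytes that lie in 1 cluster, were unequal among themselves: Gimap3 was at 6.06 and Gimap4 at 5.18, Gimap8 at 2.66, Gimap6 at 1.03 and Gimap1 at 0.35. Ms4a4b, a membrane protein gene of T cells, had 201 UMIs against 9, with up to 30 in 1 well. Ifi208, an interferon-inducible gene, had 62 UMIs in 19 T lymphocyte wells, 13 of them in 1 well, against 1. Ms4a4b, Ifi208, Gimap3 and Cd8b1 have close paralogues, between which reads may be divided.

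**Figure D3:**
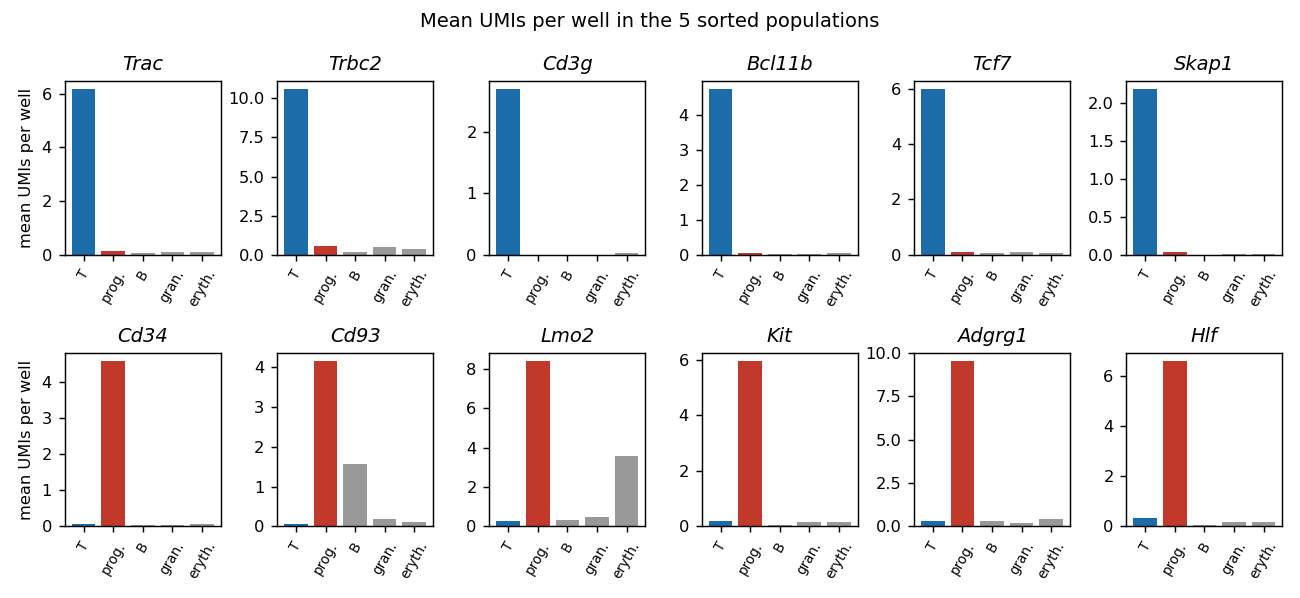
Bars give the mean UMIs per well of 12 genes in the 5 sorted populations, each with its own axis starting at 0: T lymphocytes (T), progenitor/stem cells (prog.), B lymphocytes (B), granulocytes (gran.) and erythroblasts (eryth.). The 6 T lymphocyte genes are near 0 in the other 4 populations, while Cd93 also reaches 1.57 in B lymphocytes and Lmo2 3.59 in erythroblasts.

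The genes with the lowest ratios were receptors, transcription factors and early myeloid genes of the progenitor/stem cells. Cd34, a sialomucin used to isolate human and mouse progenitors, had 434 UMIs in 90 of 95 progenitor/stem wells, with a median of 4 and at most 16 per well. The T lymphocytes had 3 UMIs, in 3 wells. This is 520 CPM (472 to 571) against 15.0 CPM (3.09 to 43.7), a log2 ratio of -5.12 with an interval from -7.40 to -3.56. Cd93, a C-type lectin-like receptor, had 395 UMIs in 87 wells against 3, at -4.98 (-7.27 to -3.42). It was not limited to the progenitor/stem cells, as the B lymphocytes held 1.57 UMIs per well. That is a mean per well and not a share. The B lymphocyte wells averaged 3087 mouse UMIs and the progenitor/stem wells 8787, so as a share the B lymphocytes stand higher than this mean shows. Kit, the antigen of the gate, had 565 UMIs in 93 wells, a median of 5 and at most 20, against 8 UMIs in 6 T lymphocyte wells, for a ratio of -4.08 (-5.30 to -3.10). Adgrg1, an adhesion G protein-coupled receptor, was found in all 95 progenitor/stem wells, with 906 UMIs, a median of 9 and at most 24. In the T lymphocytes it had 13 UMIs, 1 in each of 13 wells, or 0.302 per well, where the B lymphocytes had 0.295, the granulocytes 0.188 and the erythroblasts 0.427. These too are means per well and not shares. Of the 12 progenitor/stem surface receptors compared, 9 were higher by 4-fold or more in the progenitor/stem cells and all 12 by 2-fold or more, with a median of -3.11.

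Among the transcription factors of stem and progenitor cells, 9 of 11 were higher by 4-fold or more in the progenitor/stem cells, and the median was -3.26. Lmo2, a bridging factor of early haematopoiesis, had 798 UMIs in 94 of 95 wells against 11, at -4.12 (-5.13 to -3.28). Hlf, a factor tied to stem cell quiescence, had 628 UMIs in 89 wells against 14, at -3.43 (-4.31 to -2.67). Hoxa9 had 179 in 69 wells against 3, at -3.84 (-6.13 to -2.27), and Nfe2 147 in 71 wells against 2, both in the same T lymphocyte. Against the floor of 3 UMIs over the T lymphocytes Nfe2 was at -3.56. Fli1, with 91 UMIs against 20, was at -0.13. The early myeloid genes Mpo and Prtn3, which encode enzymes of granules, had 193 UMIs in 44 wells and 259 in 78 wells, against 3 and 6 in the T lymphocytes. Mpo was the more uneven, with up to 28 UMIs in 1 well and a median of 0. Of the 5 genes compared in this list 3, Mpo, Prtn3 and Plac8, were higher by 4-fold or more in the progenitor/stem cells, with a median of -3.37. That median was -2.50 for a mean of at least 20 CPM and -1.13 without a filter. Below the level for comparison, the T lymphocytes had 20.0 CPM of Elane against 20.4, 20.0 of Cst7 against 12.0 and 4.99 of Ctsg against 16.8. Ms4a3 had 0 UMIs against 1. Plac8, a small cysteine-rich protein of myeloid cells and progenitors, had 454 UMIs in 86 wells against 5, at -4.45 (-6.08 to -3.21).

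The 15 lowest also included genes of other roles. Rgs18, a regulator of G protein signalling, had 186 UMIs in 74 progenitor/stem wells and 0 in the T lymphocytes. At the floor of 3 UMIs the T lymphocytes were 14.9-fold lower. Spns2, an exporter of sphingosine-1-phosphate, had 298 against 4. The actin-binding coronin Coro2a had 206 against 3, Gm19590 254 against 4, Cdca7 180 against 3, the glycosyltransferase Gcnt2 176 against 2, and the interferon-inducible Ifitm1 222 against 4. Exons of Cd34, Spns2, Coro2a, Mpo, Gcnt2 and Hoxa9 overlap those of another annotated gene, and so do those of Skap1 among the highest. Since the use of strand by the authors is not stated, reads of overlapping genes cannot be told apart.

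The genes of the sorted antigens differed between the populations by unequal amounts. The values of Kit and the CD3 genes are given above. Ly6a, which encodes Sca-1, had 66 UMIs in 41 of the 95 progenitor/stem wells and 5 UMIs in 3 T lymphocyte wells, a log2 ratio of -1.66 (-3.33 to -0.37), which is under 4-fold. Cd44 had 28 UMIs against 0 and was below the level for comparison. The median CD44 fluorescence was 6495 against 234. Ptprc, which encodes the pan-leukocyte antigen CD45, was higher in the T lymphocytes by a log2 ratio of 2.53 (2.35 to 2.72). It was present in all 43 T lymphocyte wells with a median of 12 UMIs and at most 32, and in 92 of 95 progenitor/stem wells with a median of 4 and at most 16. It stayed higher in UMIs per well, at 1.62.

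Measured as shares, growth and division genes moved by less. All 12 genes compared from the list for DNA replication and S phase had ratios below 0, with a median of -1.15, and 1, Dut, passed 4-fold at -2.36 (-3.83 to -1.20). That median was -2.04 scaled to ERCC UMIs and -2.06 in UMIs per well, past 4-fold in both. Dut makes dUTPase, which keeps uracil out of new DNA. The helicase subunit gene Mcm6 had 342 UMIs against 25, at -1.72 (-2.36 to -1.13). The 9 genes for G2 and mitosis, in contrast, had a median of 0.41 and none at 4-fold, and this median changed sign to -0.48 when scaled to ERCC UMIs, to -0.50 in UMIs per well, to -0.14 over genes of at least 100 CPM and to -0.045 with each gene taken without its highest well. Ube2c, which helps to degrade mitotic cyclins, was at 1.69, with 24 UMIs in 11 T lymphocyte wells and up to 11 in 1 well. Mki67 had 91 UMIs against 332, a ratio of 0.19. All 9 genes of nucleolar ribosome biogenesis were below 0, with a median of -0.95. That median was -0.45 with scran size factors and -1.85 scaled to ERCC UMIs. Of 65 ribosomal protein genes 61 were below 0, with a median of -0.45. None of either list reached 4-fold. Over all 3825 genes the median was -0.07.

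Among housekeeping lists the 56 nuclear genes of oxidative phosphorylation had a median of -0.10 (0.07 with scran size factors) and the 4 glycolytic enzymes 0.14, with no gene at 4-fold. The sign of the glycolytic median depended on the setting. It was -0.75 scaled to ERCC UMIs, -0.78 in UMIs per well and -0.61 with totals that leave out the abundant transcripts, and under other filters it was -1.21 for a mean of at least 20 CPM, -0.69 for at least 50 UMIs in both populations together and -1.15 without a filter. The 11 genes of MHC class I and peptide loading had a median of 0.12, which became -0.78 when scaled to ERCC UMIs, -0.80 in UMIs per well and -0.012 with each gene taken without its highest well. Within this list Nlrc5, the activator of MHC class I genes, was at 1.69 (1.04 to 2.33) and Tap2 at -0.96 (-1.78 to -0.23). All 3 genes of the Bcl2 family that were compared, Bcl2, Mcl1 and Bcl2l11, were above 0 with a median of 1.41, and none reached 4-fold. Immediate early genes respond quickly to signals such as that of the T cell receptor. Of the 8 compared, 5 were higher by 4-fold or more in the T lymphocytes, with a median of 2.34, and Klf6 was at -0.14. That median was 1.45 scaled to ERCC UMIs, 1.43 in UMIs per well and 1.47 without a filter. These genes were unevenly spread over cells. Egr1 had 41 UMIs in 7 T lymphocyte wells, 16 of them in 1 well, and Nr4a1 had 23 in 5 wells, 14 of them in 1 well. Without the highest well the ratio of Egr1 was 3.74 in place of 4.42, and that of Nr4a1 2.67 in place of 4.00. Below the level for comparison, Fos had 0 UMIs against 3, Fosb 0 against 5 and Jun 3 against 16. Also below it, Junb had 54.9 CPM against 21.6 and Dusp1 15.0 against 12.0. Ier5 and Jund were broader, in 23 and 26 wells, at 3.36 and 2.50.

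**Figure D4:**
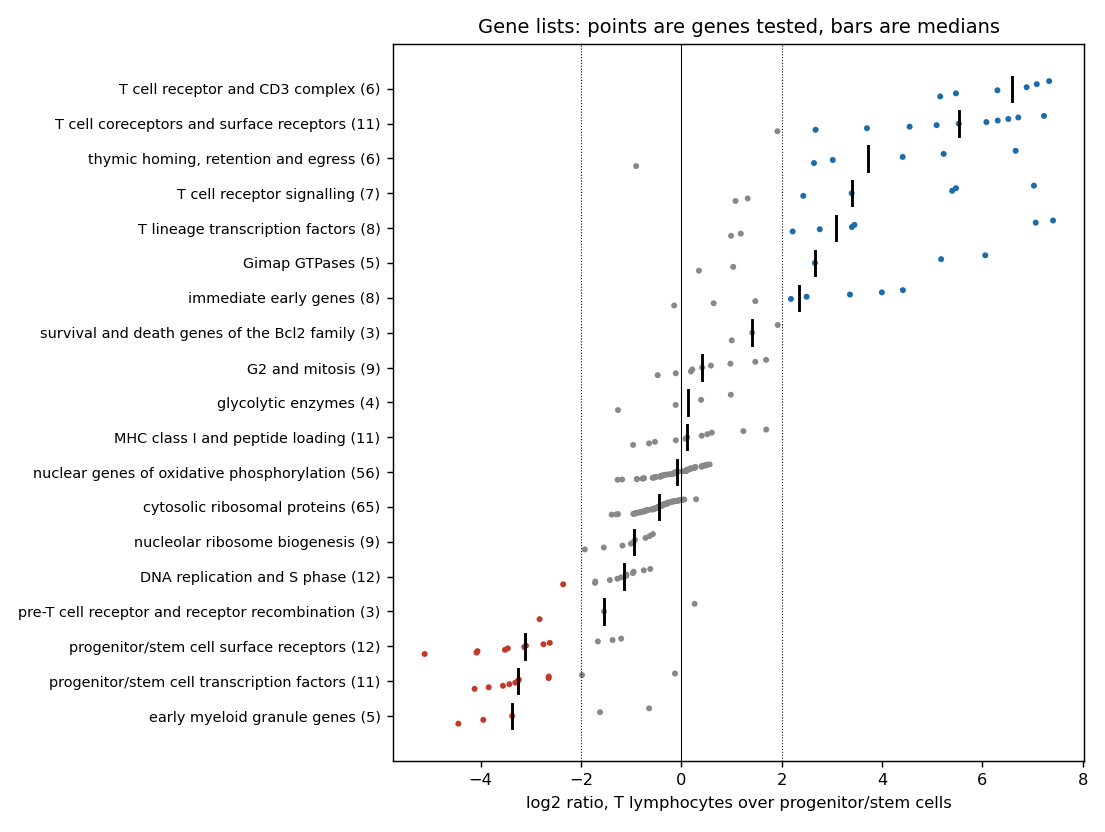
Points are the genes of 19 lists that were compared, by log2 ratio of T lymphocytes over progenitor/stem cells, with the number of genes after each list name, a bar at the median and dotted lines at 4-fold. The T cell receptor and CD3 complex has a median of 6.59 and the early myeloid granule genes one of -3.37, while the 65 ribosomal proteins lie between -1.39 and 0.29.

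Promoter sequences are shown for genes at both ends of the ranking, to set the genes that moved together beside the letters in front of them. They are the 250 bases before the transcription start in RefSeq (GRCm38.p6). Capitals mark matches, on either strand, to 6-letter cores recognised by the Runx, ETS, TCF/LEF and GATA families of transcription factors, which are spelled out after the sequences. No match overlaps another in these 5 windows. The windows are those of Cd3d (chr9:44981536-44981785, plus strand), Cd3g (chr9:44980432-44980681, minus strand), Bcl11b (chr12:108003415-108003664, minus strand), Kit (chr5:75574737-75574986, plus strand) and Cd34 (chr1:194938571-194938820, plus strand). The windows of Cd3d and Cd3g lie close together in front of genes that run in opposite directions.
Cd3d: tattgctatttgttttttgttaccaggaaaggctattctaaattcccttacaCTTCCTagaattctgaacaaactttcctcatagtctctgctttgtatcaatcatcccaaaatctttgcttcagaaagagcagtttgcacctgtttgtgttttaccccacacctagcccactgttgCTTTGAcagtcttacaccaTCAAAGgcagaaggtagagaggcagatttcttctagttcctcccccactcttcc
Cd3g: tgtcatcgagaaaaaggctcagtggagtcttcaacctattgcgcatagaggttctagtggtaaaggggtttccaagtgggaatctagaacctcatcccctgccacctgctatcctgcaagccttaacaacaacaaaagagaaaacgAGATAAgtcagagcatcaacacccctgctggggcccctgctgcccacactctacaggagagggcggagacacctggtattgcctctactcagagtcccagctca
Bcl11b: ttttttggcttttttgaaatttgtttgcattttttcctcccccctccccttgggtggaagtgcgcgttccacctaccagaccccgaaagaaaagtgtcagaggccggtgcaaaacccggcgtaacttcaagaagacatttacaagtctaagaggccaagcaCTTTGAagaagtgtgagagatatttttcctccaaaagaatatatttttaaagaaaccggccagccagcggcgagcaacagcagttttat
Kit: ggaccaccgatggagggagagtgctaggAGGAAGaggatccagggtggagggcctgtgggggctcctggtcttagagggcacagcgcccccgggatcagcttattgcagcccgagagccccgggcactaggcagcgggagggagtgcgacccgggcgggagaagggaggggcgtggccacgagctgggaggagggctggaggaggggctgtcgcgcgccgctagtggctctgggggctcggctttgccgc
Cd34: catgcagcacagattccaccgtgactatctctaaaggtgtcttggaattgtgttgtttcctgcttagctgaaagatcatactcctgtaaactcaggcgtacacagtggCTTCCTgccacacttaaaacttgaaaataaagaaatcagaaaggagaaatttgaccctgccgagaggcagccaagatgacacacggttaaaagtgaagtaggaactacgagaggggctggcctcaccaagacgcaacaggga

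Of the 15 genes with the highest ratios 8 had a promoter in the table, and of the 15 with the lowest 11. Those named here without one were Trac, Trbc1, Skap1, Cd8b1, Ccr7, Cd6, Cd93, Lmo2, Rgs18 and Gm19590. The ETS core, AGGAAG, was found in 3 of the 8 and 4 of the 11 windows, in 29.2% of 27025 promoters of the same length, and in 29.0% of the 2721 promoters of genes that were compared. The core of TCF/LEF factors, to which the protein of Tcf7 belongs, is CTTTGA and was in 3 of 8 (Bcl11b, Cd3d and Ifi208) and 2 of 11 (Ifitm1 and Mpo), in 14.05% of all and 10.1% of those compared. The core bound by GATA factors such as Gata3 is AGATAA, and it was in 1 of 8 (Cd3g) and 1 of 11 (Spns2), in 10.3% of all and 5.81% of those compared. For Runx factors the core searched was ACCACA, and it was in 0 of 8 and 2 of 11 (Plac8 and Spns2), in 14.2% of all and 10.4% of those compared. A match is a run of letters and does not show that a factor binds there.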

How the data were processed

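The deposited values are raw UMI counts, whole numbers for each gene in each well, made by *scPipe* from CEL-seq2 reads by exon assignment, demultiplexing on designed barcodes and UMI deduplication. For the genome build, annotation and strand setting, the authors' choice is not given in sources used here. Counts were used as deposited. Left out were 9 columns of wells without a matching sample. No doublet caller was run, since single cells were sorted into wells. Symbols came from GENCODE M21 (GRCm38), and 64 gene IDs without a symbol were kept under their ID. Python 3.11.15 with numpy 2.4.6, pandas 2.3.3 and scipy 1.17.1 was used, R 4.3.3 with scran 1.30.0 and edgeR 4.0.16 only in alternatives, and matplotlib 3.10.9 for plots.

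UMIs were summed per population and scaled to CPM on mouse genes, without ERCC. Genes with a mean CPM of the populations of at least 50 were compared. Sums under 3 UMIs were set to 3 for ratios, and genes at 4-fold or more were counted. With all cells from 1 mouse, a population counts as 1 sample and nothing was tested. The 95% intervals are exact Poisson (CPM), exact conditional binomial (ratios) or exact binomial (shares) and cover counting error only. On sums of 3825 genes simulated with Poisson error, which these intervals assume, 96.6% of the ratio intervals held the true ratio. Spread between cells was not simulated, so this checks the calculation only. For comparisons at equal depth each well was thinned to 1500 UMIs. The genes named are the top 15 and bottom 15 by ratio among genes detected in no fewer than 25% of wells on the side where they are higher, the 5 top genes by abundance on either side, up to 4 genes of each list, and the antibody targets. The members, lists and markers were chosen with earlier results of these data known. Other listed genes named beside these, and the groups in the closing section, were chosen after their values were seen. Some genes are not reported here, and those on a list were left out of its counts after the results had been seen.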

Additional observations from a re-analysis of the deposited data

How the results depend on the processing

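The counts of genes at 4-fold or more (190 higher in T lymphocytes, 147 in progenitor/stem cells, so that 56.4% were higher in T lymphocytes) depended on the scaling and the filter, in the same order: 111 and 424 scaled to ERCC UMIs (20.7%), 107 and 434 in UMIs per well (19.8%), 320 and 243 with a mean CPM of at least 20, 106 and 57 with at least 100, 112 and 243 with at least 50 UMIs in both populations together (31.5%), and 492 and 243 without a filter (66.9%), where a ratio was given only if a sum passed the floor. TMM factors, scran size factors, totals without the abundant transcripts, the mean CPM over wells, a floor of 1 UMI and the alternatives that leave out wells kept both counts within 1.5 times. Scran raised the median ratio by 0.13. All T lymphocyte wells had a UMI on a T lymphocyte marker, so leaving out wells without one removed 0 wells. Leaving out wells under 1500 UMIs, or wells above 20% ERCC, removed 1 T lymphocyte well and 0 progenitor/stem wells each time, with the same counts of 190 and 150. The well under 1500 UMIs held 426 of the 200396 T lymphocyte UMIs, so its removal could hardly move a ratio. Leaving out wells with 5 or more UMIs on granulocyte or B lymphocyte markers would remove all 43 and all 95 wells, and gave no value. In its place, and chosen after seeing the data, 3 and 9 wells with more than 30 granulocyte or 150 erythroblast marker UMIs were left out, which gave 195 and 157, and Trac then rose from 6.30 to 7.66. Also chosen afterwards, each gene was recomputed without its highest well, which gave 178 and 138. Over the genes in the ranking and the antibody targets, 520 of 528 recomputed ratios stayed in the counting interval, and the other 8 kept their direction. The settings that change only the filter, and the one that removed 0 wells, leave each of these ratios as it was. Such values are among the 520 and do not measure stability, and the values from settings that removed 1 T lymphocyte well add little. Of 304 recomputed medians of the gene lists, 244 were counted as kept and 60 as moved. No paired analysis was possible because each population is 1 sample. Depth limits the lower genes: a gene found in the T lymphocytes alone needs 21 UMIs there to be compared, whereas in the progenitor/stem cells it needs 84.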

Other observations

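Interferon-inducible genes were a further group among the genes higher in the T lymphocytes. The group was put together from gene symbols after the ratios had been seen, and its count is a description. It holds all symbols that begin with Ifi beside other families. There were 73 such genes, of which 39 were compared. T lymphocytes were higher by 4-fold or more in 20 of them, and progenitor/stem cells in 2, Ifitm1 (222 UMIs against 4, at -3.74) and Ifitm3 (268 against 7, at -3.20). The median log2 ratio of the 39 was 2.62. Summed over all 73 genes the group was at 9082 CPM against 2906, a log2 ratio of 1.64 (1.56 to 1.73), which is under 4-fold. The T lymphocyte wells held a median of 25 UMIs on the 73 genes and the progenitor/stem wells a median of 22. Ifi208 and Ifi213, of the family that senses DNA, had 62 UMIs against 1 and 87 against 6, Ifit1 and Ifit3 had 82 against 21 and 33 against 1, Isg15 38 against 9, and the GTPases Gbp9 and Gbp4 63 against 7 and 68 against 14. Bst2, Ifi44 and Ifi27 of the same group were slightly below 0. Their spread over cells was wide. The 39 genes took from 0% to 3.27% of the UMIs of a T lymphocyte well, with a median of 0.543%, and from 0.0700% to 0.711% of a progenitor/stem well, with a median of 0.244%. In 15 of 43 T lymphocytes the share was above that of every progenitor/stem cell. Some of the 39 reached the level for comparison only through the T lymphocytes, such as Ifit3 at 165 CPM against 1.20. The choice of genes thus favours the T lymphocytes in these shares, which are a description only. The well O4, the deepest T lymphocyte well, held 408 of the 1820 UMIs of all 73 genes. Without it 20 of the 39 genes were at 4-fold or more, the median was 2.03, and the ratio of the sums over all 73 genes was 1.36. Members of the Gbp, Ifi and Slfn families are close paralogues, so the division of reads between them is uncertain. Exons of Gbp4 and Gbp9 also overlap.

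Joining segments of the receptor alpha locus, named after their values were seen, were also counted in T lymphocytes. Over 30 joining segments there were 148 UMIs in 33 of 43 T lymphocyte wells and 2 UMIs in the progenitor/stem cells, with Traj18 in 21 wells, Traj27 in 16 and Traj49 in 7.

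Among genes on no list, the cell cycle kinase gene Cdk6 had 1012 UMIs in 91 of 95 progenitor/stem wells (median 7, at most 37) and 42 in the T lymphocytes, a log2 ratio of -2.53 (-3.01 to -2.09). H2afy, which encodes the histone variant macroH2A1, had 1985 UMIs in 94 wells (median 15, at most 114) against 109, at -2.13 (-2.42 to -1.85). On the other side Cd52, a small surface glycoprotein of lymphocytes, had 278 UMIs in 42 of 43 T lymphocyte wells and 130 in the progenitor/stem cells, at 3.16 (2.85 to 3.47). The antiproliferative gene Btg1 had 75 against 32, at 3.29 (2.67 to 3.93), and Foxo1 53 against 22, at 3.33 (2.58 to 4.12). Id2 had 44 UMIs against 9, but 26 of these lay in 1 T lymphocyte well, and without it the ratio fell from 4.35 to 3.09. Exons of Cdk6, H2afy, Cd52 and Foxo1 overlap those of another annotated gene, with the limit given above for such genes.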
